A study of Mus musculus with 112 samples.

Results

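The response of white adipose tissue (WAT) to caloric restriction (CR) was examined in B6C3F1/J mice, the hybrid offspring of C57BL/6J and C3H/HeJ parents. The 16 arrays that carry this strain label were taken from the 112 arrays of the series, 8 from mice on CR and 8 from mice on the control diet, with 1 mouse per Affymetrix Mouse Gene 1.0 ST array. The series holds 7 strains with 8 mice per diet in each and was made to find genes that respond to CR in fat. All mice were male, were bought at 6 weeks of age, lived singly and received 84 kcal a week of an AIN93M-type purified diet until 8 weeks of age. Control mice then stayed on a measured allotment and CR mice were given a smaller one until 22 weeks of age, when all were fasted overnight and epididymal fat was frozen. The groups therefore describe young adult males of 1 hybrid after an overnight fast, with controls that were not fed freely. The C3H/HeJ, CBA/J and DBA/2J mice of the series, 48 arrays in all, received the same 2 allotments and are used below where the hybrid is set against other strains.

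White adipocytes take up glucose and fatty acids after a meal and store them as triacylglycerol, and release them again between meals. To make fatty acids from sugar, an adipocyte turns glucose into pyruvate and then mitochondrial citrate, exports the citrate, splits it into acetyl-CoA and builds the chains with NADPH from the pentose phosphate pathway and malic enzyme. WAT also holds macrophages, other immune cells, fibroblasts, blood vessels and, in the abdominal depots, a mesothelial surface. Macrophages that gather around failing adipocytes load themselves with lipid and carry a program of lysosomal and lipid-handling genes.

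The tissue carried the genes of mature adipocytes at high signal in every animal. Adiponectin, the product of Adipoq, had log2 signals from 12.67 to 12.89 in the controls and from 12.66 to 12.80 on CR, and the mean of 8 adipocyte markers lay between 12.45 and 12.67 in all 16 mice. Epididymis markers were low, and no array exceeded the median of the 16 by more than 0.31 on their mean. In whole tissue, a fall in the RNA of a cell type can mean fewer such cells or less RNA in each, and these cannot be told apart. The first principal component held 43.9% of the variance and separated the diets, with control mice between -33.8 and -13.2 and CR mice between 14.5 and 29.7. Array medians lay between 7.12 and 7.20.

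Control mouse 2 and CR mouse 8 stood apart from the others. Their mean correlations with the other 15 arrays, across genes, were 0.971 and 0.974, under a limit of 0.977 set from all 16 arrays. In control mouse 2 the mean log2 signal of 10 liver genes, among them Alb and Apoa1, was 12.07, while the median was 9.18 over the controls and 8.90 over the CR mice. CR mouse 1 had the highest liver gene mean on CR, 10.7. The lowest mean was 8.23 among the controls and 6.84 among the CR mice. Liver signal thus varied over all the mice, and leaving out control mouse 2 removes only the highest value. Of the 5 genes with the greatest spread within the groups, 4 were highest in control mouse 2. Serpina1c, Fbp1, Tdo2 and Cyp4a31, which are abundant in liver and of which the first and last belong to families of close paralogs, reached 12.03, 11.74, 10.91 and 10.55 in control mouse 2, and none of them passed the test for diet. Klk1b22, a kallikrein of a large paralog family, also spread widely within both groups, from 4.61 to 8.29 in the controls and from 4.51 to 8.44 on CR. CR mouse 8 alone carried genes of ciliated and duct epithelium, with a mean of 8.64 over 10 of them against 4.84 to 5.08 in the controls and a median of 4.97 on CR. This mouse was also the lowest CR animal for many of the lipid synthesis genes below. Both marker sets were drawn up after these values were seen. With the liver gene mean as a covariate 6908 genes changed on CR, 6394 of them among the 6823 that changed without it, and the part of the epithelial genes was measured only by leaving out CR mouse 8. Results were computed with and without both arrays, and values without them are given wherever they alter a statement.

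**Figure D1:**
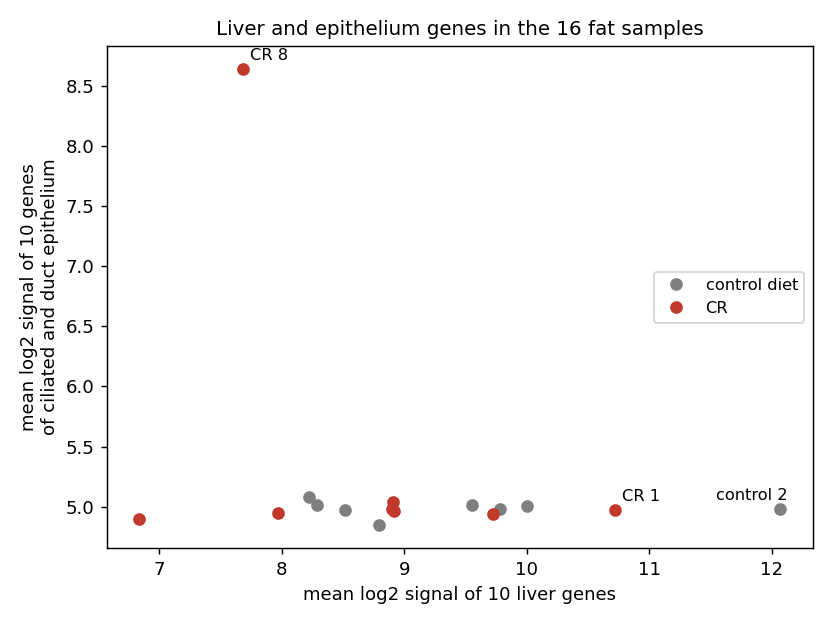
Mean log2 signal of 10 liver genes (horizontal axis) and of 10 genes of ciliated and duct epithelium (vertical axis) in each of the 16 B6C3F1/J fat samples, grey for the control diet and red for CR. Control 2 has the highest liver gene mean, 12.07, and CR 8 is the only sample high for the epithelial genes, at 8.64.

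On CR, B6C3F1/J fat had more signal for the genes that make fatty acids, sterols and mitochondria and less for those of macrophages and the extracellular matrix, with large changes in a few genes and small ones in many. Of 19938 genes, 6823 (34.2%) changed at a limma adjusted p under 0.05, 3549 of them higher on CR (17.8%) and 3274 lower (16.4%). The 8 CR values lay entirely above the 8 control values for 1385 genes (6.95%) and entirely below them for 1135 genes (5.69%). These shares are the background against which the gene lists below are read. Most of the changes were small. The median size of change among the 6823 genes was 0.28 on the log2 scale, 339 changed by more than 1 (a fold of over 2), and of these 124 rose and 215 fell. Over all genes the median change was -0.03. Without control mouse 2 and CR mouse 8, 7242 genes changed, 6391 of them among the 6823.

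The largest rises were in genes of fat synthesis. Elovl6, the elongase that carries 16-carbon fatty acids to 18 carbons, had log2 signals from 8.96 to 9.92 in the controls, with a median of 9.66, and from 12.63 to 13.21 on CR. The difference was 3.47 (SE 0.14), an 11.1-fold rise (limma adjusted p = 7.2e-11). Slc2a5, a fructose transporter, rose by 3.37, from a control median of 6.30 to a CR median of 9.73, and the adipose elongase gene Elovl3 by 3.24. Among the 12 genes with the largest rise and no overlap between the diets there were also 5 outside the routes of sugar and fat. Hephl1, which encodes a copper-containing ferroxidase, rose by 3.24 and reached 7.08 in CR mouse 8, 9.08 in the median CR mouse and 9.52 in the highest, against at most 6.02 in any control. Slc15a5, a member of the peptide transporter family, rose by 3.02, the soluble adenylyl cyclase gene Adcy10 by 2.79, the mucin-like Parm1 by 2.51 and the sorting receptor Sorl1 by 2.46. All 12 were higher in each CR mouse than in each control.

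The largest falls were led by genes of macrophages. Atp6v0d2, part of the proton pump that acidifies lysosomes and typical of osteoclasts and activated macrophages, had a lowest, median and highest log2 signal of 10.05, 10.75 and 11.65 in the controls and 6.66, 7.13 and 7.75 on CR. It fell by 3.61 on the log2 scale (SE 0.22), which is 12.2-fold (limma adjusted p = 3.2e-09). Gpnmb, a membrane glycoprotein of lipid-loaded macrophages, changed by -3.31, the tetraspanning membrane protein gene Tm4sf19 by -3.17, and the macrophage elastase Mmp12 and the integrin Itgax (CD11c) by -2.90 each. The G-protein regulator Rgs1, the fatty acid binding protein gene Fabp7, the receptor for bacterial ribosomal RNA Tlr13, the lipid receptor Trem2, the stress-induced factor Atf3, the interleukin-7 receptor gene Il7r and the adaptor Stap1 changed by -2.85 to -2.25. For each of these genes the highest CR mouse was below the lowest control. Tm4sf19, Rgs1, Fabp7, Tlr13, Atf3, Il7r and Stap1 are in none of the macrophage lists used below.

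Most measured genes of the route from sugar to fatty acids rose. Of the 9 genes of acetyl-CoA supply and fatty acid synthesis all 9 rose, each with no overlap between the diets, with a median change of 1.56. Acly, which splits citrate into acetyl-CoA, was at 9.18, 9.67 and 9.93 in the lowest, median and highest control and at 12.15, 12.90 and 13.13 on CR, a rise of 3.20 (SE 0.14) or 9.17-fold (limma adjusted p = 7.2e-11). Acss2, which makes acetyl-CoA from acetate, rose by 2.43, and Slc25a1, the citrate exporter, by 1.56. Acaca, the acetyl-CoA carboxylase of the committed step, rose by 2.23 from a control median of 10.50. Fasn, fatty acid synthase itself, was already among the brighter genes in controls, from 11.94 to 12.58, and lay between 13.50 and 13.62 in all CR mice. It rose by 1.23 (SE 0.07). Thrsp, a lipogenic regulator of the Spot 14 family, rose by 2.80. CR mouse 8 was the lowest CR animal for Acly, Acss2, Acaca and Thrsp, and without it and control mouse 2 Acly rose by 3.31 and Acss2 by 2.57.

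Sugar entry and breakdown moved in the same direction, though Gpi1, Gapdh and Eno1 of glycolysis and the pyruvate carrier gene Mpc2 were not measured. Of 17 measured genes of sugar uptake and glycolysis 12 rose and 0 fell, with a median change of 0.52, and 1 fell without the 2 arrays that stood apart. Slc2a4, the insulin-responsive glucose transporter GLUT4, had a control range of 9.38 to 10.04 and a CR range of 10.60 to 11.59 and rose by 1.42 (limma adjusted p = 8.7e-08). Pfkl and Pkm, enzymes of the first committed and the last step of glycolysis, each rose by 1.13, and Aldoa by 0.65 and Pgam1 by 0.58. For pyruvate entry into mitochondria, 9 of 13 genes rose and 2 fell. The pyruvate dehydrogenase subunits Pdha1 and Pdhb rose by 1.26 and 1.65, Dlat and Dld of the same complex by 1.48 and 0.98, the pyruvate carrier Mpc1 by 1.29 and pyruvate carboxylase, Pcx, by 0.90. The 2 that fell act on the phosphorylation of the complex. Pdk4, a kinase that switches it off, ranged from 10.33 to 11.30 in the controls and from 9.78 to 11.01 on CR. These ranges overlapped, the change was -0.47 (SE 0.16, limma adjusted p = 0.034), and this call was lost when some single mice were left out in turn. Pdp1, a phosphatase that switches it on, changed by -0.31. Both were singled out after their values were seen.

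Of 9 measured genes of NADPH supply 8 rose and 0 fell. The list also holds pentose phosphate enzymes that make no NADPH themselves, among them Tkt, Taldo1 and Rpe, and G6pdx was not measured. Tkt, a transketolase of the pentose phosphate pathway, rose by 2.55 (SE 0.11), from a control range of 8.94 to 9.40 to a CR range of 11.28 to 12.10. Malic enzyme, Me1, rose by 1.87, Pgd by 1.01, Taldo1 by 0.80, Rpe by 0.72 and Idh1 by 0.53. Of 17 elongation and desaturation genes 10 rose and 0 fell, and the list was uneven. Elovl6 and Elovl3 rose by over 3, and Scd2, a stearoyl-CoA desaturase, by 2.03, with 12.18 in CR mouse 8 and 12.79 in the highest CR mouse. Elovl4, which makes very long chains, rose by 1.01, and Hsd17b12 and Tecr, which serve every elongation cycle, by 0.89 and 0.46. Elovl3 was 7.09 in control mouse 2 and had a control median of 5.54. Without that mouse and CR mouse 8 its rise was 3.60.

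As a list, transcription factors of lipogenesis and their partners changed less than genes of acetyl-CoA supply and fatty acid synthesis, with medians of 0.06 and 1.56. Of 10 measured members 4 rose and 2 fell. Mlxipl, which encodes the carbohydrate-responsive factor ChREBP, had control values from 8.85 to 9.16 and CR values from 9.73 to 10.69 and rose by 1.28 (SE 0.11, limma adjusted p = 7.6e-08). Its partner Mlx rose by 0.78. Srebf1, the SREBP gene that drives fatty acid synthesis, rose by 0.97, from a control median of 9.92 to a CR median of 10.95, and Insig1, which holds SREBP proteins in the endoplasmic reticulum and is itself a target of them, by 1.24. Insig1 was 10.82 in CR mouse 8 and had a CR median of 11.72. Srebf2, the SREBP gene of sterol synthesis, changed by -0.19 (limma adjusted p = 0.014) and Usf2 by -0.11, both smaller than any of the rises.

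**Figure D2:**
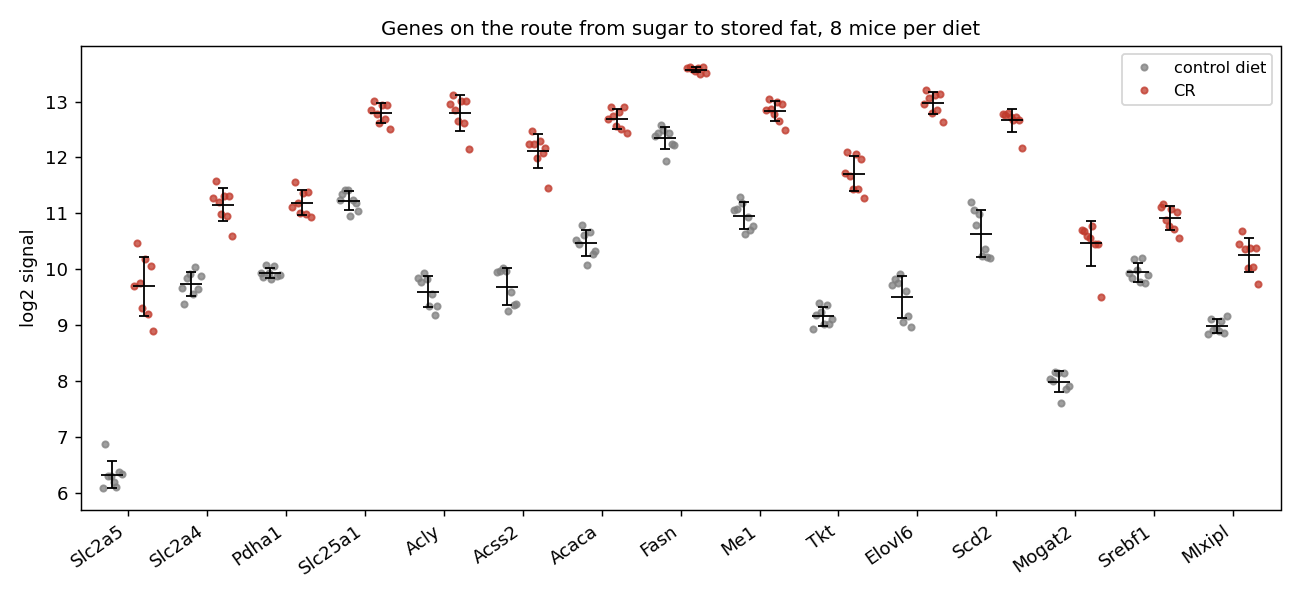
Log2 signal (vertical axis) of 15 genes on the route from sugar uptake to stored fat in 8 control mice (grey) and 8 CR mice (red). Horizontal marks are group means and bars 1 SD. For each gene every CR mouse lies above every control mouse, and the widest gaps are those of Elovl6, Slc2a5 and Acly.

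Nuclear genes of mitochondrial energy metabolism rose together by modest amounts. All 16 measured genes of the citric acid cycle rose (median 0.52), as did all 35 of respiratory complex I (median 0.46) and 32 of 33 of complexes III and IV and ATP synthase (median 0.50). Cs, citrate synthase, ranged from 11.02 to 11.35 in the controls and from 11.81 to 12.14 on CR and rose by 0.83 (SE 0.06, limma adjusted p = 1.2e-08). Ndufs1, a core subunit of complex I, rose by 0.77, with 8.86 to 9.15 in controls and 9.65 to 9.98 on CR. Cyc1, cytochrome c1 of complex III, rose by 0.77, Cox5a of complex IV by 0.65 and cytochrome c itself, Cycs, by 0.61. The size of these changes was far below that of the lipogenic enzymes, but the ranges of the diets were apart for 14 of the 16, 28 of the 35 and 27 of the 33 genes.

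Of 46 mitochondrial ribosome genes 43 rose and 0 fell (median 0.37), among them Mrpl50 by 0.78, Mrpl12 by 0.77 and Mrps15 by 0.60. The cytosolic ribosome differed. Of its 27 measured genes 3 rose and 4 fell, with a median of -0.01, and no member changed by more than 0.33. Regulators of mitochondrial genes were mixed in size. The transcription factor of mitochondrial DNA Tfb2m rose by 0.60 and Tfb1m by 0.47. Ppargc1a, the coactivator PGC-1alpha, ranged from 6.86 to 7.21 in controls and from 7.04 to 8.25 on CR, an overlap, and rose by 0.55 (limma adjusted p = 0.0022). Its relative Pprc1 fell by 0.24 on the log2 scale. The mitochondrial chaperone Hspd1 rose by 0.77 and its partner Hspe1 by 0.41, and the mitochondrial antioxidant enzymes Prdx3, Txn2 and Sod2 rose by 0.86, 0.51 and 0.46, whereas Gpx1 fell by 0.56.

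Every one of the 32 measured proteasome genes rose, with a median of 0.38, and the diets did not overlap for 21 of them. Psmd14, the deubiquitinase of the regulatory lid, had control values from 9.83 to 10.04 and CR values from 10.32, in CR mouse 8, to 10.84, and rose by 0.80 (SE 0.07, limma adjusted p = 7.7e-08). Psmd12, Psmc4 and Psmc6 rose by 0.74, 0.69 and 0.68. Psmb8 and Psmb9, inducible catalytic subunits of the immunoproteasome, fell, with changes of -0.21 and -0.23. The third such subunit, Psmb10, changed by -0.15 and did not pass (limma adjusted p = 0.056), nor did the activator genes Psme1 and Psme2, at 0.08 and 0.12. Psmb10, Psme1 and Psme2 were named after their values were seen.

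Mitochondrial fuel pathways rose as well. Of 17 genes of beta-oxidation 14 rose and 1 fell (median 0.33). Acadvl, which acts on very long acyl chains, rose by 0.71, and Hadha and Hadhb, the trifunctional protein, by 0.49 and 0.56. The gene that fell was Cpt1a, which admits fatty acids into mitochondria and was singled out after its values were seen. It ranged from 10.68 to 11.30 in controls and from 10.10 to 10.49 on CR, with no overlap, and fell by 0.56 (SE 0.08, limma adjusted p = 3.3e-05). For the breakdown of branched-chain amino acids 15 of 18 genes rose and 0 fell, with Pcca at 0.62, Hibch at 0.58 and the first enzyme, Bcat2, at 0.53. Without both arrays that stood apart, 1 gene of this list fell.

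Most genes that assemble triacylglycerol rose, and genes of lipolysis and the droplet coat changed in both directions. Of 13 assembly genes 10 rose and 1 fell (median 0.47). Mogat2, a monoacylglycerol acyltransferase, was at 7.60, 8.02 and 8.16 in the lowest, median and highest control and at 9.51, 10.58 and 10.77 on CR, the lowest being CR mouse 8. It rose by 2.48 (SE 0.14) or 5.59-fold (limma adjusted p = 1.9e-09). The glycerol phosphate dehydrogenases Gpd2 and Gpd1 rose by 2.01 and 0.84, and the acyltransferases Gpam and Agpat2 by 1.07 and 0.92. Pck1, which makes glycerol phosphate from pyruvate-derived carbon in fasted fat, fell by 0.51 with overlapping ranges, 12.05 to 12.51 in controls and 11.49 to 12.11 on CR, and was singled out after its value was seen.

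Of 14 genes of lipolysis and the lipid droplet coat 5 rose and 3 fell (median 0.08). The hormone-sensitive lipase Lipe changed by 0.08 and did not pass the test (limma adjusted p = 0.18), and its control range of 12.47 to 12.79 lay across the CR range of 12.67 to 12.82. Pnpla3, a lipase and acyltransferase that follows lipogenesis, rose by 1.37, and the droplet fusion protein Cidea by 1.76, from a control median of 6.30 to a CR median of 7.99. Its white fat relative Cidec changed by -0.24 and the droplet coat gene Plin4 by -0.26. Among lipolytic receptors and cyclic AMP genes, 2 adenylyl cyclases moved in opposite directions. Adcy10 was below 5.15 in every control and from 6.52 to 8.57 on CR. Adcy5, a membrane cyclase that answers to hormone receptors, ranged from 9.23 to 9.61 in controls and from 7.51 to 8.27 on CR and fell by 1.58 (SE 0.09, limma adjusted p = 2.2e-09). Ptger3, a prostaglandin receptor that inhibits cyclase, rose by 0.95.

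For fatty acid uptake 4 of 11 genes rose and 1 fell. Fabp5, a fatty acid binding protein of macrophages and adipocytes, rose by 1.77 (SE 0.08), from between 9.69 and 9.95 to between 11.21 and 11.87. Lpl, lipoprotein lipase, rose by 0.22. Fabp4, the main binding protein of adipocytes, changed by 0.10 with a limma adjusted p of 0.046, a call lost without control mouse 2 and CR mouse 8. Cd36 changed by -0.08 (limma adjusted p = 0.073) and reached -0.10 and the threshold without those 2 arrays.

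Hormone genes of fat changed by small amounts. Lep, leptin, ranged from 11.93 to 12.38 in controls and from 11.43 to 12.08 on CR and fell by 0.39 (SE 0.10, limma adjusted p = 0.0067). Adipoq changed by -0.04 (limma adjusted p = 0.45). Resistin, Retn, rose by 0.36, Nampt by 0.43 and Rbp4 by 0.31, and chemerin, Rarres2, fell by 0.30. Pparg, the master factor of adipogenesis, changed by 0.11 and did not pass (limma adjusted p = 0.076). Among adipogenic factors Klf15 rose by 0.65 and Cebpa by 0.35, and Klf4 fell by 0.37.

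Of 12 thermogenic genes 6 rose and 1 fell. Apart from Cidea these were Cox8b by 1.24, Cox7a1 by 1.19, the potassium channel Kcnk3 by 1.12, Ppargc1a by 0.55 and Ucp1 by 0.78. Cox7a1 and Kcnk3 did not overlap between diets, with control maxima of 8.21 and 8.73 and CR minima of 8.79 and 9.08. Ucp1, which lets brown fat mitochondria burn fuel as heat, stayed dim, from 5.49 to 6.33 in controls and from 6.11 to 7.30 on CR, and the ranges overlapped.

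Sterol synthesis rose along most of its length. Of 17 measured genes 13 rose and 1 fell, with a median of 1.11, and 16 rose without the 2 arrays that stood apart, of which CR mouse 8 was the lowest CR animal in the mean of this list. Lss, which closes the sterol ring system, was at 7.78, 8.00 and 8.36 in the lowest, median and highest control and at 9.15, 10.08 and 10.45 on CR, and rose by 1.95 (SE 0.14) or 3.87-fold (limma adjusted p = 1.3e-08). Fdps, which makes farnesyl diphosphate, rose by 1.80, Pmvk of the mevalonate route by 1.71, Idi1 by 1.69 and the late enzymes Nsdhl and Sc5d by 1.45 and 1.14. The exception was Hmgcs1, HMG-CoA synthase, which stands at the entry of the pathway. It ranged from 10.38 to 10.77 in controls and from 9.98 to 10.38 on CR, with no overlap, and fell by 0.42 (SE 0.06, limma adjusted p = 4.3e-05).

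Genes of the circadian clock changed in both directions. Of 16 measured genes 9 rose and 4 fell. Dbp and Tef, output factors of the PAR bZIP family, which bind D-box elements, rose. Hlf, also of this family and measured, is not described here. Dbp ranged from 9.19 to 9.76 in controls and from 9.87 to 10.26 on CR and rose by 0.64 (SE 0.08, limma adjusted p = 7.4e-06), and Tef rose by 0.43. The repressors Per3 and Cry2 rose by 0.57 and 0.38, the nuclear receptor genes Rora and Nr1d2 by 0.34 and 0.32, and Cry1 by 0.29. The 4 that fell were Arntl, Clock, Per1 and Nr1d1, named after their values were seen. Arntl, the partner of Clock in the activator pair, ranged from 6.99 to 7.73 in controls and from 6.17 to 6.89 on CR and fell by 0.68 (SE 0.12, limma adjusted p = 0.00021). Clock itself changed by -0.21 and Per1 by -0.25. Nr1d1 changed by -0.31 with overlapping ranges (limma adjusted p = 0.028), a call that was lost in some of the alternatives. The hour at which each mouse was killed is not given in the sources used here.

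To show the regulatory sequence of genes in these 2 lists, the promoters of RefSeq (GRCm38.p6, 250 bases before to 50 after each start) were searched on both strands for CACGTG, the E-box letters bound by the activator pair and by USF and some other factors, for the D-box letters TTATGTAA and TTACGTAA, and for the sterol element letters TCACNCCAC. Sequence was found for 15 genes of each list. CACGTG stood in the promoter of 4 of the 15 clock genes and 3 of the 15 sterol genes, and in 8.09% of all 27025 genes (7.15% of 32851 promoters). TTATGTAA was found in 1 clock gene and 1.11% of all genes (0.938% of promoters). TTACGTAA was found in 0 genes of either list and 0.126% of all genes (0.119% of promoters). TCACNCCAC was found in 1 sterol gene and 1.44% of all genes (1.24% of promoters). The windows below belong to genes that changed on CR, smallest p first, and are shown so that the letters found in genes of these 2 lists can be read in place. CACGTG also stood 60 bases upstream in Cry1, which rose, and 166 bases upstream in Per1, which fell, and these 2 windows are left out only because their p was larger. Capitals mark the letters searched, and a match shows only that they are present.
Sc5d, rose by 1.14, minus strand, chr9:42264348-42264443, motif 98 bases upstream of the start: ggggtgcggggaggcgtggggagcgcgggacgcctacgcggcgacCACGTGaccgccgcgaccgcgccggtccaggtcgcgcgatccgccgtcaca
Dhcr7, rose by 1.11, plus strand, chr7:143823190-143823285, motif 164 bases upstream: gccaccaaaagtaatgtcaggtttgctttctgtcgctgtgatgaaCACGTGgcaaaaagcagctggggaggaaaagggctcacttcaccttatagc
Hmgcs1, fell by 0.42, plus strand, chr13:119690169-119690267, motif 137 bases upstream: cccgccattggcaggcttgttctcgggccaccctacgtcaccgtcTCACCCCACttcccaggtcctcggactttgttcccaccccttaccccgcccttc
Tef, rose by 0.43, plus strand, chr15:81802501-81802596, motif 127 bases upstream: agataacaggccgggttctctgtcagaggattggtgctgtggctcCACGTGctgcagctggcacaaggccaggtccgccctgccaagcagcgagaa
Tef, a start further along the gene, plus strand, chr15:81811231-81811326, motif 138 bases upstream: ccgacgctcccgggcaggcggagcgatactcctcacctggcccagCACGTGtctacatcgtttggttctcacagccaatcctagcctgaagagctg
Per3, rose by 0.57, minus strand, chr4:151044771-151044915, motifs 205 and 158 bases upstream: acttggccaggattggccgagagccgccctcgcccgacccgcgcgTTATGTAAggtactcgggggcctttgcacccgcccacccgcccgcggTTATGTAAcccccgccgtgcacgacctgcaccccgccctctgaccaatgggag

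Macrophage genes fell as a block. All 17 measured pan-macrophage markers fell, with a median change of -1.21, and for 16 of the 17 every CR mouse was below every control. Their mean log2 signal was 9.69, 9.96 and 10.44 in the lowest, median and highest control and 8.62, 8.77 and 9.07 on CR. Cd68, a lysosomal membrane protein of macrophages, ranged from 11.52 to 12.36 in controls and from 9.68 to 10.27 on CR and fell by 1.95 (SE 0.12) or 3.85-fold (limma adjusted p = 2.8e-09). Mpeg1, the pore-forming perforin-2, changed by -2.12, the signalling adaptor Tyrobp by -1.58, the oxidase subunit Cybb by -1.55, Adgre1, an adhesion receptor much used as a macrophage marker, by -1.35, and Csf1r, the receptor that keeps macrophages alive, by -0.95.

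Genes of lipid-laden macrophages fell further. Of 11 measured 8 fell and 2 rose, with a median of -2.24. Gpnmb was at 11.53, 11.96 and 12.63 in the lowest, median and highest control and at 8.30, 8.40 and 9.41 on CR, a 9.94-fold fall (SE 0.21 on the log2 scale, limma adjusted p = 4.1e-09). Trem2 ranged from 9.36 to 10.79 in controls and from 7.61 to 7.93 on CR, and the lysosomal protease Ctss, the tetraspanin Cd9 and the acid lipase Lipa changed by -2.24, -0.86 and -1.46. The 2 that rose, Fabp5 and Lpl, are also expressed by adipocytes, and Cd36, shared in the same way, did not pass. Resident tissue macrophage markers changed less, with 4 of 10 lower and 2 higher (median -0.22). The mannose receptor Mrc1 changed by -0.77, Clec10a by -0.60, Folr2 by -0.49 and the haemoglobin receptor Cd163 by -0.30. Lyve1, another resident marker, ranged from 9.09 to 9.72 in controls and from 9.30 to 9.96 on CR and did not pass (limma adjusted p = 0.11). Cbr2 and Cd209f rose by 0.33 and 0.30, and 1 of these 2 calls was lost without the 2 arrays that stood apart.

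Lysosome genes fell in part. Of 18 hydrolases and membrane proteins 12 fell and 1 rose, the largest being Ctss, Ctsk (-1.96) and Lipa, while Hexa and Npc1 changed by -0.63 each and Ctsa by -0.58. The vacuolar proton pump did not move as 1 unit. Atp6v0d2 fell by 3.61, yet of its 15 measured genes 5 rose and 4 fell, with Atp6v1g1 and Atp6v1h up by 0.61 and 0.47. For cholesterol handling 3 of 7 genes fell, the ester hydrolase Nceh1 by -1.89, the scavenger receptor Msr1 by -1.32 and the exporter Abcg1 by -0.63 in log2 change, and Olr1 rose by 0.43.

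Antigen presentation, complement and chemokine genes were lower. Of 8 MHC class II genes 6 fell, all without overlap (median -0.87). H2-Ab1 ranged from 11.72 to 12.14 in controls and from 10.51 to 11.26 on CR and fell by 1.00 (SE 0.11, limma adjusted p = 8.9e-07). H2-Aa fell by as much, the invariant chain Cd74 changed by -0.81 and their transcriptional master Ciita by -0.64. Of 13 complement genes 11 fell and 0 rose (median -0.80). C3ar1 and C5ar1, receptors for complement fragments on myeloid cells, changed by -1.90 and -1.37, and Cfb and C4b, secreted components that adipocytes and fibroblasts also make, by -1.48 and -1.43. C4b ranged from 10.85 to 11.15 in controls and from 9.20 to 9.92 on CR. Of 21 chemokines and receptors 14 fell and 0 rose, led by Ccl9 (-1.48), the monocyte receptor Ccr2 (-1.38), Ccl6 (-1.18) and Ccl7 (-1.07). Of 16 genes of inflammatory cytokines and adhesion 10 fell and 0 rose, among them the interleukin-1 antagonist Il1rn at -1.34 and Tlr2 at -0.33. Interferon-stimulated genes were divided, with 4 of 17 higher and 5 lower. Ifi27l2a fell by 1.33 (SE 0.10, limma adjusted p = 1.7e-08), whereas Ifit3 rose by 0.38.

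Lymphocyte markers were nearly level in this comparison. Of 9 T cell markers 1 passed, Cd2, which fell by 0.57, and of 7 B cell markers 0 passed. Cd3e ranged from 7.60 to 8.38 in controls and from 7.34 to 8.27 on CR (limma adjusted p = 0.90). The B cell gene Ms4a1 ranged from 5.35 to 7.01 and from 5.99 to 8.12 and reached the threshold without the 2 arrays that stood apart, with a change of 0.75. Dendritic cell markers fell for 4 of 7, with the cross-presenting cell markers Clec9a and Xcr1 at -0.74 and -0.41, and Itgae rose by 0.35. Of 8 neutrophil markers 3 fell, with changes from -0.25 to -0.15 at low signal. Mast cell markers were mixed, with Tpsb2 and Mcpt4, both mast cell proteases, at -0.43 and -0.51 and Kit at 0.41.

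**Figure D3:**
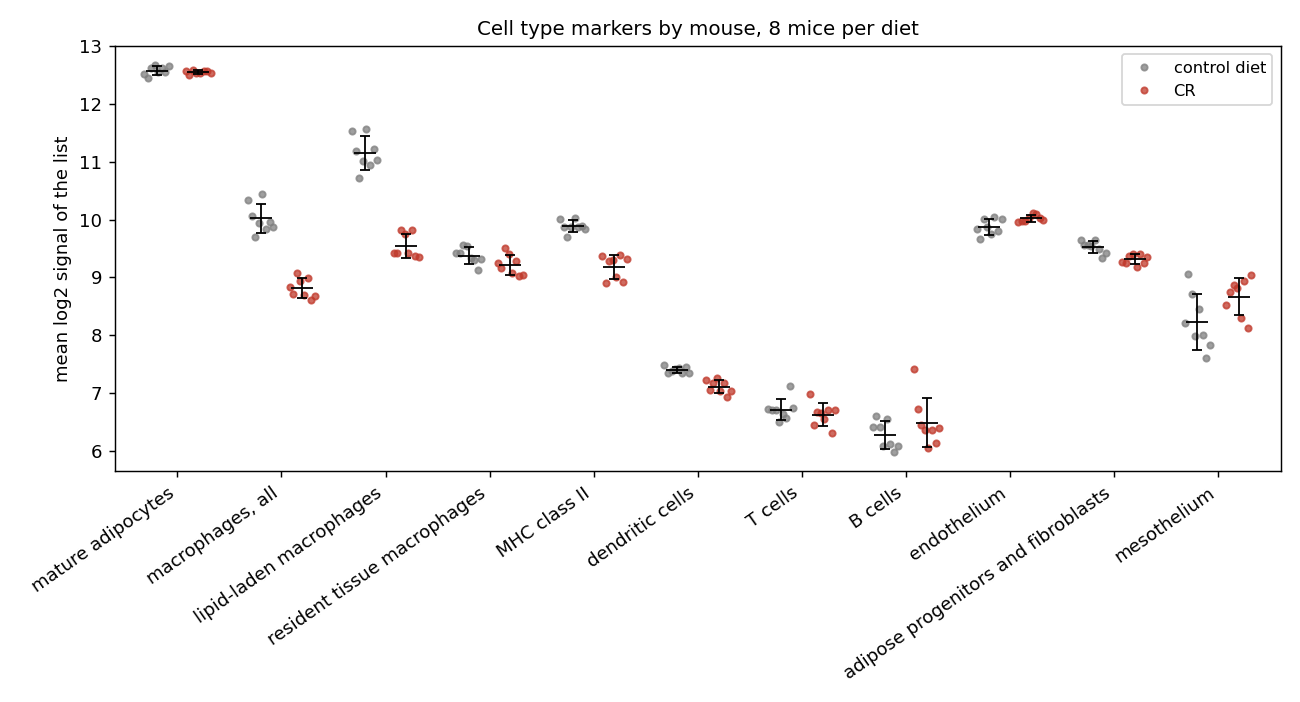
Mean log2 signal (vertical axis) of the markers of 11 cell types or programs in 8 control mice (grey) and 8 CR mice (red), with group means and bars of 1 SD. Macrophage, lipid-laden macrophage, MHC class II and dendritic cell means do not overlap between the diets, and the means of T cells, B cells and mature adipocytes do.

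Of stromal and surface cells, endothelium had 5 of 10 markers higher and 0 lower, with a median of 0.17, led by the sialomucin Emcn and the receptor Tie1 at 0.33 each. Progenitor and fibroblast markers had 3 of 7 lower, the matrix genes Dpt and Mfap5 at -0.67 and -0.52 and the receptor Pdgfra at -0.57, all without overlap. The list of smooth muscle and pericytes held changes in both directions, with 3 of 9 markers higher and 2 lower. Des, Pdgfrb and Rgs5 also passed and are not described here, so Cspg4 alone does not stand for the pericyte markers. Cspg4 (NG2), a proteoglycan of pericytes, ranged from 8.19 to 8.57 in controls and from 9.36 to 10.33 on CR and rose by 1.47 (SE 0.12, limma adjusted p = 7.9e-08), and Synpo2, an actin-binding protein, fell by 1.11, while Acta2, Myh11 and Tagln, the contractile genes of smooth muscle, did not pass. Mesothelium had 2 of 8 markers higher, Krt19 and Lrrn4 by 0.54 and 0.55, and 6 of 8 were higher without the 2 arrays that stood apart. Control mouse 2 had the highest mesothelial mean among the controls, 9.05. Of 11 epididymis markers 2 fell and 0 rose, of 8 skeletal muscle markers 1 fell and 0 rose, and of 2 red blood cell markers 0 passed. Among testis germ cell markers 1 of 8 passed, Sycp3, a protein of the meiotic synaptonemal complex, which rose by 1.56 from a control range of 6.43 to 7.21, while the protamine genes Prm1 and Prm2 changed by 0.01 and -0.08 and did not pass.

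Matrix genes fell in most of their classes. Of 12 matrix glycoproteins and cross-linking enzymes 11 fell (median -0.38). Thbs1, thrombospondin 1, ranged from 10.96 to 11.79 in controls and from 8.92 to 9.64 on CR and fell by 2.08 (SE 0.12) or 4.22-fold (limma adjusted p = 1.4e-09). Thbs2 changed by -1.33, the cross-linking enzyme Lox by -0.62, fibronectin, Fn1, by -0.49 and the proteoglycan Bgn by -0.47. Of 14 matrix proteases and inhibitors 10 fell and 0 rose, with Mmp2 and Mmp14 at -0.92 and -0.88 and Timp2 at -0.48 beside the macrophage enzyme Mmp12. Of 17 collagen chains 9 fell and 1 rose (median -0.18), with Col12a1 at -0.78 and Col1a1 at -0.45, and Col5a3, the one that rose, at 0.41.

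Growth signals outside the matrix were lower for a few genes with large changes. Of 14 imprinted growth genes 6 fell and 0 rose. Peg3, a paternally expressed zinc finger gene, was at 10.26, 10.69 and 10.99 in the lowest, median and highest control and at 8.03, 8.39 and 9.47 on CR, the highest being CR mouse 8, and fell by 2.18 (SE 0.16, limma adjusted p = 2.2e-08). Its neighbour Zim1 changed by -1.19, Nnat by -1.04 and Mest, which follows adipocyte growth, by -0.53. In the hybrid the 2 parental alleles of an imprinted gene come from different strains, and the arrays do not tell them apart. Of 9 secreted Wnt inhibitors 2 fell. Sfrp5 ranged from 10.99 to 11.55 in controls and from 8.45 to 10.03 on CR and changed by -1.79, and Wif1 by -0.25. Of 16 TGF-beta, activin and BMP genes 6 fell and 2 rose, with Bmp3 at -0.61, Tgfb1 at -0.46 and its induced matrix protein Tgfbi at -0.43, and 4 rose without the 2 arrays that stood apart. In the list of hypoxia and blood vessel growth 4 of 14 genes rose and 2 fell (median 0.09). Vhl, which marks HIF proteins for destruction, fell by 0.67 and the oxygen sensor Egln3 rose by 1.21.

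Hormone and stress response genes fell more often than they rose. In the glucocorticoid list 6 of 11 fell and 2 rose. Hsd11b1, which regenerates active glucocorticoid inside the cell, ranged from 9.33 to 10.43 in controls and from 11.11 to 11.74 on CR and rose by 1.54 (SE 0.14, limma adjusted p = 1.4e-07), and the receptor gene Nr3c1 rose by 0.26. Of target genes of the receptor, the metallothioneins Mt2 and Mt1, which are close paralogs, changed by -1.38 and -0.88, the kinase Sgk1 by -0.71 and the phosphatase Dusp1 by -0.40. Among sestrins and the integrated stress response 7 of 17 fell and 2 rose, with Atf3 at -2.31, Sesn2 at -0.65, Ddit4 at -0.45 and Atf4 at -0.31. Of 18 heat shock and unfolded protein genes 7 fell and 4 rose, and the cytosolic chaperone Hsp90aa1 rose by 0.43 while the endoplasmic reticulum chaperones Calr and Pdia4 changed by -0.27 and -0.29. In insulin and IGF signalling 9 of 21 fell and 3 rose. Grb14, an adaptor that restrains the insulin receptor, fell by 0.84, and Irs1 rose by 0.58 while Irs2 fell by 0.39. Of 22 proliferation genes 12 fell and 1 rose (median -0.25), and 8 fell without the 2 arrays that stood apart, with Ccnb2 at -0.65, Mki67 at -0.50 and Cdk1 at -0.40.

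**Figure D4:**
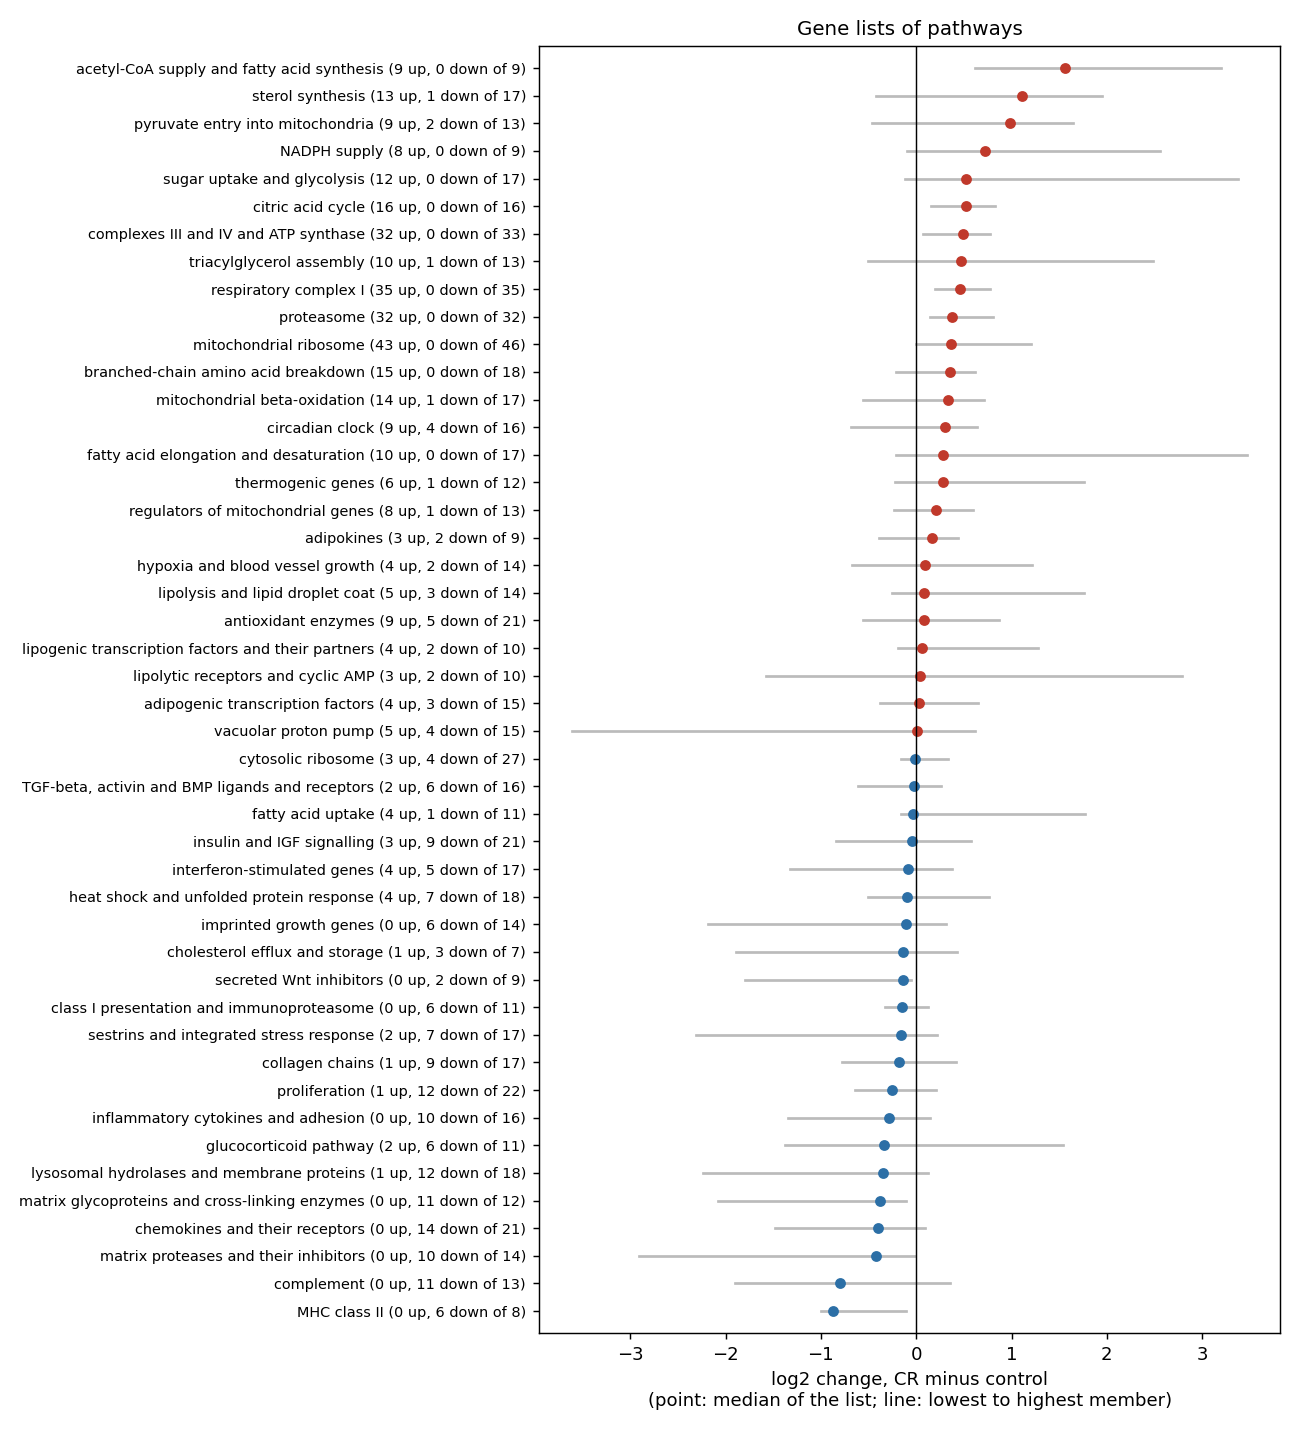
Median log2 change, CR minus control (horizontal axis, points), of each of 46 pathway lists in B6C3F1/J fat, with lines from the lowest to the highest member and the counts of members called beside each name. Fatty acid and sterol synthesis stand highest, at 1.56 and 1.11, and MHC class II and complement lowest, at -0.87 and -0.80.

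The genes that the study selected for qPCR in WAT were taken from the same arrays of all strains, so they are no independent evidence of a direction. The 10 of them that were analysed here, which are not the whole selection, all passed in the hybrid. Acaca, Acss2, Gpd2, Me1, Nampt, Ndufs4, Parm1 and Slc2a4 rose, by 0.43 (Nampt) to 2.51 (Parm1), and Cd68 and Ifi27l2a changed by -1.95 and -1.33.

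Whether the response of B6C3F1/J fat was of the same size as in other strains on the same allotments was tested in 1 model of 64 arrays, as the CR effect of the hybrid minus the mean effect of C3H/HeJ, CBA/J and DBA/2J. The effect differed for 847 genes (4.25%) at a limma adjusted p under 0.05, with a positive difference for 630 and a negative one for 217. In 822 of the 847 the size of the effect was greater in the hybrid. These genes were chosen by that same difference, and the comparison is with a mean over 3 strains. The share over all genes is not given here, so 822 is not evidence of a generally larger response. The count depended on scaling and was 502 after quantile normalization. For Elovl6 the effect was 3.47 in the hybrid, 2.01 in C3H/HeJ, 1.28 in CBA/J and 0.90 in DBA/2J, a difference of 2.07 (SE 0.35, limma adjusted p = 0.00019). Sorl1 rose by 2.46 in the hybrid and by a mean of 1.10 in the other 3 strains, and Mogat2 by 2.48 and 1.25. The order of the 4 strains was the same for Elovl6, Sorl1, Mogat2 and Acly, with C3H/HeJ, a parent of the hybrid, second to it. Among the fatty acid synthesis genes 7 of 9 differed, with a median effect of 1.56 in the hybrid and 0.82 in the others, and among sterol genes 8 of 17 (1.11 and 0.49). Sc5d rose by 1.14 in the hybrid, by 0.80 in C3H/HeJ and by 0.21 and 0.09 in CBA/J and DBA/2J (difference 0.77, SE 0.12, limma adjusted p = 0.00011).

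For the respiratory chain the counts were uneven. In the list of complexes III and IV and ATP synthase 17 of 33 differed, and in complex I 9 of 35, with medians of 0.50 and 0.46 in the hybrid beside 0.25 and 0.26 in the others. No gene of beta-oxidation differed among 17 at this threshold. For macrophages the median effects were -1.21 and -0.85, but the difference passed for 1 of 17 pan-macrophage markers, Cybb, and for 5 of 11 genes of lipid-laden macrophages. Of those, Gpnmb changed by -3.31 in the hybrid and -2.05 in the others (difference -1.26, SE 0.32, limma adjusted p = 0.015), and Trem2 by -2.33 and -1.41.

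Other genes whose effect differed varied in how far the other strains shared the response. Prelid3a, of a family of mitochondrial lipid transfer proteins, was at 5.98 to 6.37 in hybrid controls and 6.66 to 7.63 on CR, a rise of 0.89, with effects of 0.04, 0.29 and -0.04 in C3H/HeJ, CBA/J and DBA/2J (limma adjusted p of the difference 9.4e-05). Hsp90aa1 rose by 0.43 in the hybrid with a mean effect of -0.01 in the others, and the clock receptor Nr1d2 by 0.32 with -0.04 (limma adjusted p of the differences 0.00040 and 0.0026). Mrps6, a mitochondrial ribosome protein, rose by 0.78 in the hybrid and had an effect of 0.69 in C3H/HeJ but close to 0 in CBA/J and DBA/2J. Pdzd11 and Abhd1 rose by 0.61 and 1.02 with mean effects of 0.18 and 0.35 elsewhere. In the other direction Olfr111, annotated as an olfactory receptor, had the smallest p of the difference. It was at 5.95, 6.68 and 7.87 in the lowest, median and highest hybrid control and at 4.76, 5.03 and 5.23 on CR, and the effect was -1.86 against a mean of -0.24 in the others (difference -1.62, SE 0.20, limma adjusted p = 4.2e-07). Cacna1e, a voltage-gated calcium channel, changed by -1.38 in the hybrid, -0.87 in C3H/HeJ, -0.96 in CBA/J and 0.09 in DBA/2J. Adssl1, of purine nucleotide synthesis, changed by -1.20 with a mean of -0.21 elsewhere, Vsig8 by -0.86 with -0.15, Fam174b by -0.80 with -0.23, and Nlrp1c-ps, a pseudogene of the inflammasome sensor family whose probes may also read related copies, by -0.58 with 0.11.

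**Figure D5:**
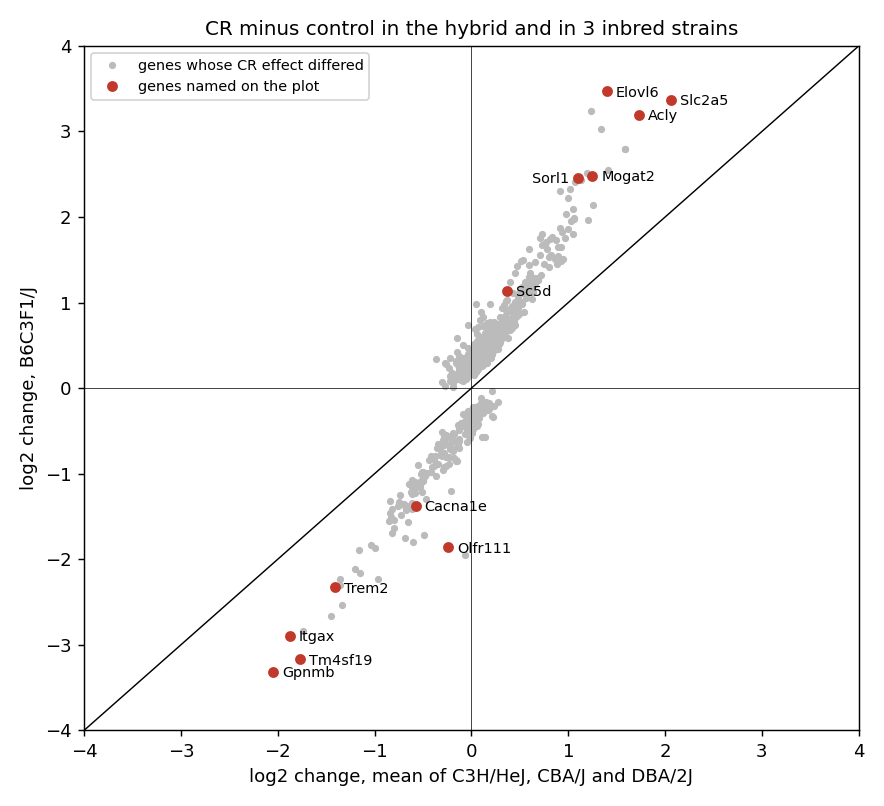
Log2 change on CR in B6C3F1/J (vertical axis) against the mean change in C3H/HeJ, CBA/J and DBA/2J (horizontal axis) for the 847 genes whose effect differed (grey) and 12 of the genes named in the text (red), with a diagonal where the effects are equal. Of the 847 points, 822 have the larger size of effect in the hybrid, a share partly set by choosing genes for this difference.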

How the data were processed

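RNA of epididymal fat from 112 male mice, 1 mouse per array, had been measured on Affymetrix Mouse Gene 1.0 ST arrays. The deposited values are log2 signals per probe set, which the authors made with RMA in Affymetrix Expression Console, per the submitters' processing notes and the methods (versions not given in the sources used here). Arrays limit precision by their number and not by read depth. Every value column had a sample. Of 35556 probe sets 21789 name 1 gene in the platform annotation, and the brightest of each gene over the 16 B6C3F1/J arrays was kept, leaving 19938 genes (999 had several probe sets). Groups followed the titles.

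CR and control were compared with limma 3.58.1 in R 4.3.3 on the 16 arrays, without covariates, with Benjamini-Hochberg adjustment over all genes and a threshold of 0.05. The study itself used Student's test on unlogged signals within each strain, and limma replaces it here, with that test as an alternative. The difference between strains was a contrast in a model of 64 arrays and 8 groups. Both fits were tested on simulated data. Alternatives covered the probe set per gene, scaling, dim genes, array weights, variance, a replicate block and leaving out mice.

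The strain, the 63 gene lists (890 of 971 genes measured) and the tests were chosen with earlier results of these data known. Genes named are the 12 largest rises and falls without overlap, up to 6 members of each list with the smallest p and the first 3 of each cell type list, the genes picked by the study for qPCR, the 6 smallest p of the strain difference in each direction and the 5 with the greatest spread within groups. Others are said to be named after their values were seen, and Dhcr7, Cry1 and Hmgcs1 were also named for their promoters.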

Additional observations from a re-analysis of the deposited data

Results flagged for a closer look

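The gap between the most extreme mouse and its nearest neighbour, divided by the whole range of the group, was above Dixon's critical value for 8 samples in 49 of 586 groups tested, and chance flags about 5% of groups. Quotients stand in parentheses. CR mouse 8 was the extreme animal for 30 of the 49. Among genes of lipid and NADPH synthesis it was so for Acss2 (0.527), Scd2 (0.805), Insig1 (0.859), Pgd (0.571), Mogat2 (0.741), Agpat2 (0.599), Dhcr7 (0.534), Fdps (0.661), Lss (0.56), Pmvk (0.662), Sc5d (0.739) and Idi1 (0.529). Among other genes it was so for Hspd1 (0.578), Cebpa (0.544), Klf15 (0.63), Kcnk3 (0.55), Hephl1 (0.664), Slc15a5 (0.556), Sorl1 (0.53), Tm4sf19 (0.558), Col5a3 (0.642), Peg3 (0.542), Mt1 (0.58), Adam7 (0.738) and Pdzd11 (0.543). Among means of gene lists it was so for mitochondrial ribosome (0.577), sterol synthesis (0.602), adipogenic transcription factors (0.746), proteasome (0.542) and markers of epididymis (0.597). Control mouse 2 was the extreme control for Elovl3 (0.754), Slc2a5 (0.643), Fbp1 (0.60), Tdo2 (0.604), Cyp4a31 (0.669) and the mean of fatty acid elongation and desaturation (0.633), of which Fbp1, Tdo2 and Cyp4a31 are liver genes. For CR mouse 2 the flag concerned Mest (0.543). For CR mouse 3 the flag concerned Vhl (0.58). For CR mouse 7 the flag concerned Arntl (0.571). For control mouse 1 the flag concerned Idh1 (0.529) and Atp6v1h (0.531). For control mouse 3 the flag concerned Nampt (0.583), H2-Aa (0.542) and Sycp3 (0.757). For control mouse 5 the flag concerned Prelid3a (0.557). For control mouse 7 the flag concerned Sesn2 (0.546), the mean of insulin and IGF signalling (0.533), the mean of TGF-beta, activin and BMP ligands and receptors (0.527) and the mean of markers of T cells (0.617). The values without CR mouse 8 and control mouse 2 are given with the results that they alter.

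The CR effect of B6C3F1/J differed from the mean effect of C3H/HeJ, CBA/J and DBA/2J, by the interaction term of the limma fit at an adjusted p under 0.05, for 30 of 35 genes considered, which had been chosen for a large change in the hybrid or for the difference itself. The difference of log2 effects was positive for Elovl6 (2.07), Slc2a5 (1.31), Hephl1 (2.01), Acly (1.47), Slc15a5 (1.69), Thrsp (1.22), Adcy10 (1.21), Tkt (1.15), Parm1 (1.31), Mogat2 (1.24), Sorl1 (1.36), Pdzd11 (0.43), Mrps6 (0.55), Prelid3a (0.79), Abhd1 (0.67) and Sc5d (0.77). It was negative for Gpnmb (-1.26), Tm4sf19 (-1.40), Itgax (-1.02), Rgs1 (-1.10), Fabp7 (-1.21), Tlr13 (-1.19), Trem2 (-0.92), Atf3 (-0.95), Olfr111 (-1.62), Nlrp1c-ps (-0.68), Vsig8 (-0.71), Cacna1e (-0.80), Fam174b (-0.57) and Adssl1 (-0.99).

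Probe sets that the gene table does not hold, because they have no gene name here or name several genes, were fitted apart. Of 13767 such probe sets 1725 changed on CR at a limma adjusted p under 0.05, 982 higher and 743 lower. They were used in no comparison above.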

How the results depend on the processing

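The number of genes changed on CR was 6823 and lay between 5234 (all 112 arrays in 1 model) and 7664 (array weights) under every alternative run, within 1.5 times of that number. It was 6544 after quantile normalization, 6195 of 11461 brighter genes, 6908 with the liver gene mean as a covariate, which was added after seeing the data, and 6052 by the methods' t-test at its threshold, with 6672 after Benjamini-Hochberg adjustment. Leaving out 1 mouse at a time gave 6263 to 7112 genes, with 3304 to 3790 higher and 2933 to 3444 lower. Centring arrays on their medians raised the share of higher genes among those changed from 52.0% to 61.1%. The difference between the hybrid and the other 3 strains held for 847 genes. It held for 502 after quantile normalization, the cause of which was not tested, and for 859 to 1056 under the other alternatives without a block. The median change of mature adipocyte markers was 0.08 and became -0.00897 after quantile normalization, and the cause was not tested. With the replicate number as a block, 5971 genes changed and 574 differed between strains. Same-numbered mice share only a number: correlations of their deviations ran from -0.36 to 0.15, and 1 of 8 matched its own number best.

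For 230 of the named genes, 6198 values were obtained under 11 alternatives and 16 fits that each leave out 1 mouse. Of these, 6141 kept their side of the threshold, 41 lost the call and 16 gained it. For 0 values did the direction turn where the gene passed in either fit. Turns of direction in genes that passed in neither fit were not counted. Tdo2, for example, changed by -0.07 without the 2 arrays that stood apart and by 0.05 with the liver covariate. Among the 230 genes the calls lost were of Fabp4, Srebf2, Plin4, Lep, Ucp1, Cd163, Mest, Krt19, Pdk4 and Nr1d1. Those gained were of Cd36, Adipoq, Pparg, Lyve1 and Ms4a1. Other genes named in the text, among them Cbr2, Cd209f, Hcar1 and B2m, are not in this count, so their absence here does not mean that their calls held. Signals on these arrays are not set against a background level here, so a change of a dim gene such as Ucp1 has no floor to be read against.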

Other observations

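Antigen presentation through MHC class I changed less than through class II. Of 11 measured genes of class I presentation and the immunoproteasome 6 fell and 0 rose, with a median of -0.15. Tapbp, the chaperone tapasin that helps load peptides, ranged from 10.86 to 11.10 in controls and from 10.52 to 10.73 on CR and fell by 0.33 (SE 0.04, limma adjusted p = 1.1e-05). Its values did not overlap between the diets. B2m, the light chain of every class I molecule, ranged from 13.02 to 13.14 in controls and from 12.82 to 13.11 on CR, ranges that overlapped, and fell by 0.11 (limma adjusted p = 0.042).

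Antioxidant enzymes were divided, with 9 of 21 measured genes higher and 5 lower (median 0.08). Gpx4, which removes lipid peroxides from membranes, ranged from 10.56 to 10.84 in controls and from 11.11 to 11.50 on CR and rose by 0.63 (SE 0.06, limma adjusted p = 3.0e-07). Txnrd2, the thioredoxin reductase of mitochondria, rose by 0.43 without overlap.

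Fgf21, a hormone of the fasting response that is made mainly in liver, was dim in this fat, from 6.26 to 6.44 in controls and from 5.90 to 6.19 on CR, and fell by 0.26 (SE 0.05, limma adjusted p = 0.00020). Hcar1, the lactate receptor of adipocytes, ranged from 9.07 to 9.76 in controls and from 8.54 to 9.47 on CR and fell by 0.39 (limma adjusted p = 0.036), and its neighbour Hcar2, the receptor for ketone bodies and niacin, did not pass (limma adjusted p = 0.62). Mogat1, a close relative of Mogat2 in the assembly of triacylglycerol, rose by 0.78, from a control median of 7.06 to a CR median of 7.78, without overlap.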
